A study of Mus musculus with 18 samples.

Results

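Rgs16 encodes a regulator of G-protein signalling, and its transcript was followed in the livers of lean and obese mice by day and by night. The gene was chosen by its symbol in the array's table of gene names, after its night-time fall in these livers was already known. It is 1 gene of 30738 that carry a single symbol, and 1 transcript cluster, the array's unit for a gene, of 65956 tested. No choice between probe sets was needed.

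RGS proteins accelerate the hydrolysis of GTP by the alpha subunits of heterotrimeric G proteins and so shorten the signal that a hormone receptor sends into the cell. RGS16 belongs to the R4 subfamily, small proteins with little outside the RGS domain, and acts on Gi/o and Gq alpha subunits. In mouse liver the gene is known as a rhythmic transcript of hepatocytes around the portal vein that responds to feeding and glucose, and as a brake on fatty acid oxidation under the carbohydrate-sensing factor ChREBP. In the suprachiasmatic nucleus, the master clock of the brain, it times cAMP signals that pass through Gi.

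The livers came from male C57BL/6J mice that were obtained as juveniles and fed freely under equal hours of light and dark. HFN mice ate a high-fat diet with 53% of its energy as fat and received 50 mg/kg NAD+ into the peritoneum every day at ZT11, an hour before lights off. HF mice ate the same diet and received saline at ZT11, and CD mice ate normal chow. Their labels name no injection, while the study's description gives saline to every mouse without NAD+. The diet ran for 8 weeks before the injections and through the 3 weeks of injection. Livers were taken at ZT18, the middle of the dark and active phase, or at ZT6, the middle of the light and resting phase, from 3 mice per group and time, 1 mouse per Clariom D array.

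All values are log2 signals, in which a difference of 1 is a doubling. Array medians lay between 4.29 and 4.42. The 5222 negative-control probe sets give the background, and their 95th percentile lay between 7.66 and 8.70 on the 18 arrays. The hepatocyte genes Alb and Trf, which encode albumin and transferrin, stood at the highest value of the whole table on every array, and no array pair differed by less than 0.264 (root mean square over all transcript clusters). On 5 arrays, CD ZT18 replicates 2 and 3, HF ZT6 replicates 2 and 3 and CD ZT6 replicate 3, the median of the negative controls (4.91 to 5.01) and the nuclear noncoding RNA Neat1 (11.09 to 15.16) were above their values on the other 13 arrays.

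At ZT18 Rgs16 stood at 8.58, 7.92 and 10.10 in HFN livers, at 9.27, 9.59 and 8.70 in HF livers and at 5.15, 5.12 and 4.88 in CD livers. At ZT6 it stood at 15.96, 12.60 and 15.27 in HFN livers, at 14.19, 15.93 and 15.08 in HF livers and at 11.13, 10.35 and 11.88 in CD livers. No night liver of any group reached a day liver of the same group, and within each time both high-fat groups lay wholly above CD.

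**Figure D1:**
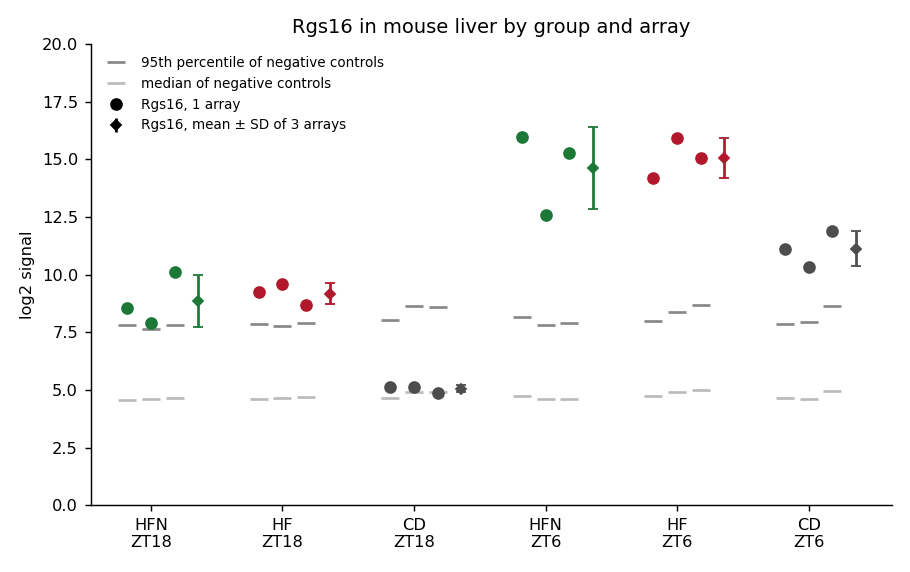
Rgs16 log2 signal on each of the 18 arrays (circles) with the mean and SD of each group of 3 (diamonds), and the median and 95th percentile of the negative controls on the same arrays (dashes). All 9 ZT6 values lie between 10.35 and 15.96, the HFN and HF values at ZT18 lie between 7.92 and 10.10, and the 3 CD values at ZT18 lie between 4.88 and 5.15, at the level of the negative controls.

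The group means order the 6 groups as HF ZT6 (15.07 ± 0.87), HFN ZT6 (14.61 ± 1.77), CD ZT6 (11.12 ± 0.76), HF ZT18 (9.19 ± 0.45), HFN ZT18 (8.87 ± 1.12) and CD ZT18 (5.05 ± 0.15; SD, n = 3 each). HFN and HF overlapped at both times. Every other pair of neighbours in this order was separate, including HF ZT18, with a highest value of 9.59, and CD ZT6, with a lowest value of 10.35. The spread within groups was uneven, since HFN ZT6 covered 3.35 log2 units and CD ZT18 covered 0.28.

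The level relative to background differs between these groups. At ZT6 Rgs16 exceeded at least 98.3% of the negative controls on every array and 94.3% to 98.8% of all transcript clusters. At ZT18 it exceeded 95.8% to 98.4% of the negative controls in HFN livers and 96.8% to 98.0% in HF livers, just past their 95th percentile. In CD livers at ZT18 it exceeded 62.3%, 55.1% and 49.2% of them, so that the transcript was not above background on any of these 3 arrays and only a bound can be given for its level there.

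The night-time values were lower by 5.74 in HFN livers, 5.88 in HF livers and 6.07 in CD livers (log2, SE 0.75 each), or 53.6-, 58.9- and 67.1-fold as measured. These differences led to the choice of the gene and are given as a description with no test. Of all transcript clusters, 0.246% passed the test of night against day in HFN, 0.866% in HF and 0.376% in CD livers. Passing means a limma p, adjusted by Benjamini-Hochberg over all transcript clusters, under 0.05 and a change of more than 25%. With each CD night array set at the 95th percentile of its negative controls, where Rgs16 lay below it, the CD fall is at least 6.50-fold. Without HFN ZT6 replicate 2, the lowest of the HFN day livers, the HFN fall was 6.75 on the log2 scale.

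High-fat feeding was asked about next, as the comparison of saline-treated obese livers with lean livers at each time. At ZT18 Rgs16 was higher in HF than in CD livers by 4.13 (SE 0.75, 95% confidence interval 2.53 to 5.73, limma adjusted p = 0.0217), which passed the test among 313 transcript clusters higher in HF. Of all transcript clusters, 0.606% passed here in either direction. The measured 17.6-fold difference is set against a CD group at background, and it was at least 1.70-fold higher in HF livers by the bound. At ZT6, where every group was above background, it was higher in HF than in CD livers by 3.95 (95% confidence interval 2.35 to 5.55), a 15.4-fold difference. With adjusted p = 0.0999 (unadjusted p = 0.000109) this missed the threshold that 0.0440% of all transcript clusters passed.

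The ZT18 call was lost when any of 5 arrays of the compared groups was left out (CD ZT18 replicates 2 or 3, HF ZT18 replicates 1, 2 or 3), with adjusted p between 0.0562 and 0.130, while the difference stayed between 3.93 and 4.38. Without the 5 arrays of raised negative-control signal, it was 4.03 (adjusted p = 0.327). That leaves 1 CD liver at ZT18, which is assumed to vary like the other groups, and the part of that signal in the difference was not tested. The ZT6 difference passed without HFN ZT6 replicate 2 (adjusted p = 0.0272), an array that enters it only through the shared spread.

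Over both times together, with group labels permuted within each time, Rgs16 was higher in HF than in CD livers by 4.04, in 6 of 6 livers at their own time. The exact two-sided permutation test gave p = 0.005, the smallest that its 400 arrangements allow, and 0.0075 after adjustment over the 3 pairs of groups. A single time of 3 against 3 cannot go below an exact p of 0.1. All p-values measure the spread between these mice.

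HFN livers shared the diet of HF livers and were set against the same CD livers. At ZT18 Rgs16 was higher in HFN than in CD livers by 3.81 (SE 0.75, 95% confidence interval 2.21 to 5.41, limma adjusted p = 0.0260), where 1.06% of transcript clusters passed, or at least 1.364-fold higher by the bound. At ZT6 the difference was 3.49 (95% confidence interval 1.89 to 5.09, adjusted p = 0.2505), where 0.0318% of transcript clusters passed, and it reached an adjusted p of 0.0455 without HFN ZT6 replicate 2. The exact permutation test over both times gave a mean difference of 3.65 with p = 0.005, again the smallest possible, and 0.0075 adjusted. In a fit of the HFN and CD livers alone the ZT18 call was lost (adjusted p = 0.133), and leaving out CD ZT18 replicate 2, CD ZT18 replicate 3 or HFN ZT18 replicate 3 also ended it (0.0766, 0.104 and 0.116). Without the 5 arrays of raised negative-control signal the difference was 3.71 (adjusted p = 0.236), with the same lone CD liver at ZT18.

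**Figure D2:**
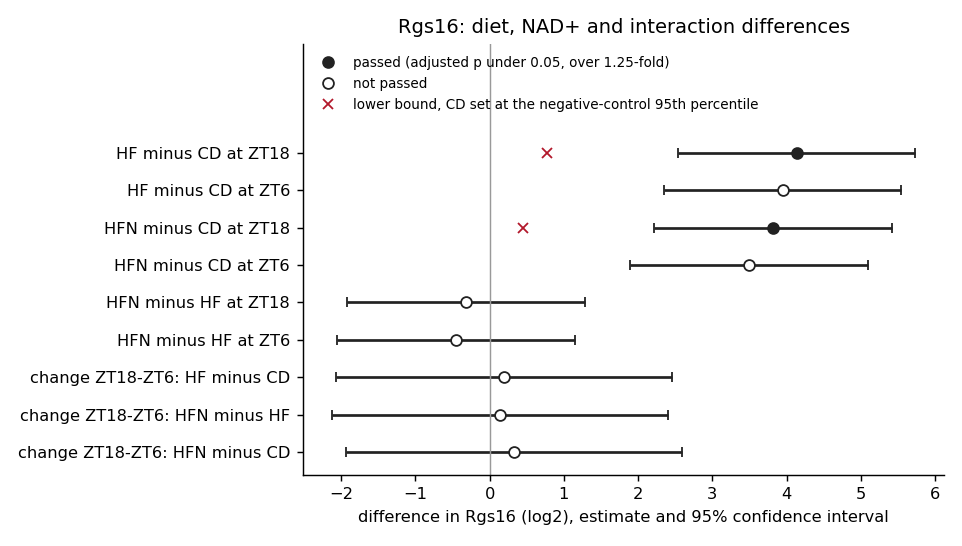
Estimated differences of Rgs16 (log2, circles) with their 95% confidence intervals from the limma fit of 18 arrays, for each diet and NAD+ comparison and for the differences between groups in the night-minus-day change. Filled circles passed the test, and crosses give the bound with CD ZT18 set at the 95th percentile of its negative controls. The 4 comparisons with CD lie between 3.49 and 4.13, and the intervals of the other 5 include 0.

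NAD+ injection was tested as HFN against HF livers. The difference was -0.32 at ZT18 (95% confidence interval -1.92 to 1.28, limma adjusted p = 1) and -0.45 at ZT6 (95% confidence interval -2.05 to 1.15, adjusted p = 0.928). The exact permutation test over both times gave a mean difference of -0.39 (p = 0.6, adjusted 0.6). No transcript cluster passed limma's test in either comparison (0% of 65956), and 3717 at ZT18 and 4582 at ZT6 had an unadjusted p under 0.05. The sign at ZT6 rested on HFN ZT6 replicate 2, without which the difference was 0.55.

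The night-minus-day change itself was then compared between groups. It differed by 0.19 between HF and CD livers (95% confidence interval -2.07 to 2.45, limma adjusted p = 0.983), by 0.14 between HFN and HF livers (-2.13 to 2.40, adjusted p = 0.990) and by 0.32 between HFN and CD livers (-1.94 to 2.59, adjusted p = 0.986). None of the 65956 transcript clusters passed limma's test in any of these 3 comparisons (0%), and between 3914 and 6038 had an unadjusted p under 0.05. Both comparisons with CD use a night value at background, which bounds the CD fall from below.

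The 250 bases before the RefSeq start of Rgs16 are shown because the transcript is this variable between groups. They lie on the plus strand of chromosome 1, at chr1:153740103-153740352 of GRCm38.p6, and the capitals mark a CCAAT box on the opposite strand, a pair of GC boxes and a TATA-like stretch.
Rgs16: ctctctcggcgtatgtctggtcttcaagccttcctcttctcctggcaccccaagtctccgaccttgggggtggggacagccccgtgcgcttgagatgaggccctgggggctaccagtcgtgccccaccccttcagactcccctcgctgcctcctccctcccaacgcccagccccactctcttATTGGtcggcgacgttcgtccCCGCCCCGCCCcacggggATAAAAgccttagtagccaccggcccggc

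The window is rich in G and C (66.4%, against a mean of 53.0% over 27025 promoters). Both strands were searched for exact matches. CCAAT, the box bound by NF-Y, matched once, 68 bases before the start, and 34.5% of all promoter windows of this length hold it. CCGCCC, the GC box of SP1-type factors, matched at 47 and at 42 bases before the start, in copies that overlap by 1 base, and 32.9% of windows hold it. The TATA-like letters ATAAAA matched 29 bases before the start and occur in 17.6% of windows. The TATA box itself, TATAAA, had no match and is held by 12.97% of windows.

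Letters tied to daily or nutrient regulation were not found in this window. The E-box CACGTG of CLOCK and BMAL1 is held by 6.05% of windows. The D-box of DBP was searched as TTATGTAA (0.862% of windows) and as TTACGTAA (0.1% of windows). The core of nuclear receptor sites, AGGTCA, is held by 13.8% of windows. The cAMP response element was searched whole as TGACGTCA (1.62% of windows) and in its short form TGACG (17.9% of windows), which lies inside the whole one. No match says only that these letters are absent from these 250 bases.

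The nearest measured genes of chromosome 1 did not share the level of Rgs16. In RefSeq order, C230024C17Rik, a noncoding RNA, Rgs8 and Npl precede it, and Rgsl1, Teddm2 and Teddm1b follow it. C230024C17Rik ran from 3.27 to 3.90 over the 18 arrays, Rgs8 from 3.997 to 4.22 and Rgsl1 from 3.56 to 3.81, and Npl reached 5.15 at most. All 6 stayed below the 95th percentile of the negative controls, and none passed in any of the 12 comparisons.

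Among the genes with an RGS domain, Rgs16 was the one with this range. Of 33 other such genes listed, 32 were measured, and 28 of them never exceeded the 95th percentile of the negative controls on any array. On single arrays, only 9.35% to 12.8% of all transcript clusters exceeded that percentile, so that a low signal is not particular to RGS genes. Rgs5, Snx13 and Arhgef12 exceeded it on all 18 arrays, and Arhgef11 on 2.

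**Figure D3:**
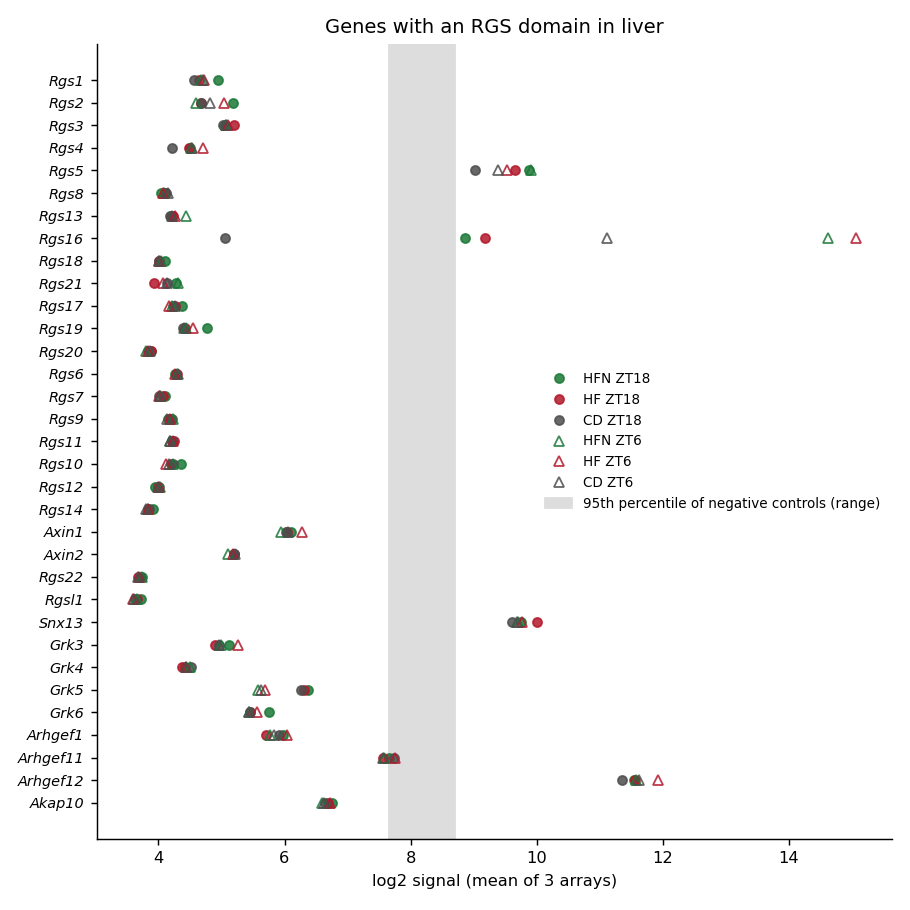
Mean log2 signal of 3 arrays for each measured gene with an RGS domain in each of the 6 groups (circles for ZT18, triangles for ZT6), with the range of the negative-control 95th percentile shaded. Rgs16 spans 5.05 to 15.07, whereas each of the other genes keeps its 6 means close together, and most lie left of the shading.

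In the R4 subfamily, the relatives closest to Rgs16 in sequence, Rgs5 was the other gene above background. It is known from pericytes and smooth muscle of vessels, and its means were 9.88 ± 0.32 in HFN, 9.65 ± 0.24 in HF and 9.02 ± 0.20 in CD livers at ZT18 and 9.91 ± 0.22, 9.52 ± 0.17 and 9.38 ± 0.12 at ZT6 (SD, n = 3 each). It passed as higher in HFN than in CD livers at ZT18, by 0.86 (SE 0.17, limma adjusted p = 0.0288), and was higher by 0.63 in HF livers without passing (adjusted p = 0.126). Rgs1, Rgs2, Rgs3, Rgs4, Rgs8, Rgs13, Rgs18 and Rgs21 ran between 3.79 and 5.55 on all arrays and passed nowhere. Rgs2 is a Gq-directed member and Rgs1 and Rgs18 are known from blood cells.

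The other subfamilies were flatter. Rgs17, Rgs19 and Rgs20 of the RZ subfamily, Rgs6, Rgs7, Rgs9 and Rgs11 of the R7 subfamily, known from neurons, and Rgs10, Rgs12 and Rgs14 of the R12 subfamily ran between 3.72 and 5.20, and none passed in any comparison.

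Proteins that carry an RGS domain among others gave 1 gene that passed. Grk5, a kinase that desensitizes receptors, was higher at ZT18 than at ZT6 by 0.62 in HF livers (SE 0.13, limma adjusted p = 0.0345) and by 0.78 in HFN livers (adjusted p = 0.0163), and by 0.63 in CD livers without passing (adjusted p = 0.0501). Its signal was 5.49 to 6.63, below the background percentile on all arrays. Arhgef12, an exchange factor downstream of G12/13, stood at 11.22 to 12.00 and the sorting nexin Snx13 at 9.26 to 10.10, and neither passed. Axin1, Axin2, Rgs22, Rgsl1, Grk3, Grk4, Grk6, Arhgef1, Arhgef11 and Akap10 did not pass either.

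The G protein subunits on which RGS16 acts were measured at different levels. The Gi subunit genes Gnai2 (11.83 to 13.23) and Gnai3 (11.08 to 11.91) were above background on all 18 arrays. Gnai2 passed as higher in HFN than in CD livers at ZT18, by 0.93 (SE 0.17, limma adjusted p = 0.0165). Gnat1, the transducin subunit of rod photoreceptors, was lower at ZT18 than at ZT6 by 1.37 in HFN, 1.05 in HF and 1.08 in CD livers (adjusted p = 0.00155, 0.00708 and 0.00864), at signals of 5.28 to 7.30 that never passed the background percentile. Of the Gq family none passed, with Gnaq at 8.10 to 8.56 and Gna11 at 8.05 to 8.71, above the background percentile on 13 and on 14 of the 18 arrays.

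The same test was read over the wider pathway. Over the lists of alpha, beta and gamma subunits, receptors, adenylyl cyclases, cAMP effectors and phospholipase C, 98 of 115 genes were measured. Of these, 5 were higher and 0 lower in HFN than in CD livers at ZT18 (5.10%, against 1.06% of all transcript clusters), 3 were higher and 0 lower in HF than in CD livers at ZT18 (3.06%, against 0.606%), and 0 passed in either comparison with CD at ZT6. In those ZT6 comparisons 0.0318% of all transcript clusters passed for HFN and 0.0440% for HF livers. Gna13 and Gnb1, an alpha and a beta subunit, were each higher by 0.54 in HFN than in CD livers at ZT18 (adjusted p = 0.0429 and 0.0481), and Prkacb, a catalytic subunit of protein kinase A, by 0.43 (adjusted p = 0.00936). Prkca, a protein kinase C downstream of Gq, was higher at ZT18 by 1.08 in HFN and by 0.74 in HF livers than in CD livers (adjusted p = 0.000847 and 0.0111), at signals below the background percentile on all arrays. The melatonin receptor gene Mtnr1a, whose product couples to Gi, was higher at ZT18 by 1.13 in HF livers against CD livers (adjusted p = 0.00950) and by 0.78 in HFN livers without passing (adjusted p = 0.0522), and the ADP receptor gene P2ry1 was higher in HF livers by 0.88 (adjusted p = 0.0414). Mtnr1a passed the background percentile on 3 of the 18 arrays and P2ry1 on 0.

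Between night and day, 1 of these 98 genes passed in HFN livers (1.02%, against 0.246% of all transcript clusters), 4 in HF livers (4.08%, against 0.866%) and 2 in CD livers (2.04%, against 0.376%). Beside Gnat1, Mtnr1a was higher at ZT18 in HF livers by 1.12 (limma adjusted p = 0.00861), and Prkar2a, a regulatory subunit of protein kinase A, by 1.02 (adjusted p = 0.00925). The angiotensin receptor gene Agtr1a was lower at ZT18 in HF livers by 1.02 (adjusted p = 0.0190), and the cAMP phosphodiesterase gene Pde4b was lower at ZT18 in CD livers by 0.51 (adjusted p = 0.0297), below the background percentile on all arrays.

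ChREBP and its targets were listed because the factor is known to act on Rgs16. Of 17 measured genes, 4 passed as higher and 0 as lower in HFN than in CD livers at ZT18, with a median difference of 0.85 against 0.016 over all transcript clusters, and 5 and 0 in HF livers (median 0.89 against -0.00025). Of all transcript clusters, 1.06% passed in the comparison of HFN with CD and 0.606% in that of HF with CD. Pnpla3, a lipid droplet hydrolase, averaged 8.19 ± 0.39 in HFN, 9.18 ± 0.43 in HF and 5.36 ± 0.05 in CD livers at ZT18 (SD, n = 3 each). That was a difference of 2.83 between HFN and CD livers (limma adjusted p = 0.00041) and of 3.82 between HF and CD livers (adjusted p = 3.34e-05). No CD liver was above background for it at either time, so that HF livers were at least 1.69-fold higher at ZT18 by the bound, and no fold is given for HFN livers, whose mean lay under the bound. Acly and Khk, which make cytosolic acetyl-CoA and phosphorylate fructose, were higher in HF livers by 2.24 and 1.43 (adjusted p = 0.0407 and 0.0473).

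Klf10, a transcription factor, was higher by 1.07 in HF than in CD livers at ZT18 (adjusted p = 0.0246), and Fgf21, a secreted hormone, by 0.90 (adjusted p = 0.00164), both at signals that never reached the background percentile. In HFN livers Fasn, the fatty acid synthase, was higher than in CD livers by 2.24, Khk by 1.33 and Fgf21 by 0.85 (adjusted p = 0.0481, 0.0499 and 0.00239). Mlxipl, which encodes ChREBP itself, was lower by 1.41 in HF livers without passing (adjusted p = 0.403). At ZT6, where 0.0318% of transcript clusters passed in HFN and 0.0440% in HF livers, only Pnpla3 and Fgf21 of this list passed, by 2.13 and 0.77 between HFN and CD livers (adjusted p = 0.0132 and 0.0200) and by 2.62 and 0.89 between HF and CD livers (adjusted p = 0.00422 and 0.00905). For Pnpla3 at ZT6 no HFN or CD array and only 1 HF array was above background, so that no fold is given. Without the 5 arrays of raised negative-control signal, 1 gene of the list passed in each ZT18 comparison, with 1 CD liver left at ZT18.

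Fatty acid oxidation is the process that RGS16 is known to restrain. Of 16 measured genes of the mitochondrial pathway, 11 passed as higher in HFN than in CD livers at ZT18 and 8 in HF than in CD livers, with 0 lower (median differences 0.75 and 0.77), where 1.06% and 0.606% of all transcript clusters passed. At ZT6 none of the 16 passed, where 0.0318% of all transcript clusters passed in HFN and 0.0440% in HF livers. The median differences at ZT6 were 0.55 in HFN and 0.42 in HF livers. None of the 16 passed as different in its night-minus-day change (medians 0.26 for HFN minus CD and 0.33 for HF minus CD). Cpt1a, the gate of fatty acid entry into mitochondria, was higher by 1.78 in HFN livers (SE 0.29, limma adjusted p = 0.0104), and Slc25a20, the carnitine carrier, by 1.21 (adjusted p = 0.0419). Bdh1, which makes the ketone body beta-hydroxybutyrate, was higher by 0.99 in HFN and 1.26 in HF livers (adjusted p = 0.00247 and 0.000509), and Hadhb of the trifunctional protein by 1.11 and 1.12 (adjusted p = 0.00322 and 0.00360). Eci1, an enoyl-CoA isomerase, was higher by 1.03 and 1.05 (adjusted p = 0.00266 and 0.00258), and Acadl, a long-chain acyl-CoA dehydrogenase, by 0.74 and 0.89 (adjusted p = 0.0452 and 0.0245). A fit of the compared groups alone gave 0 passing genes in either comparison, and leaving out the 5 arrays gave 2 in HFN and 0 in HF livers, with 1 CD liver left at ZT18.

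**Figure D4:**
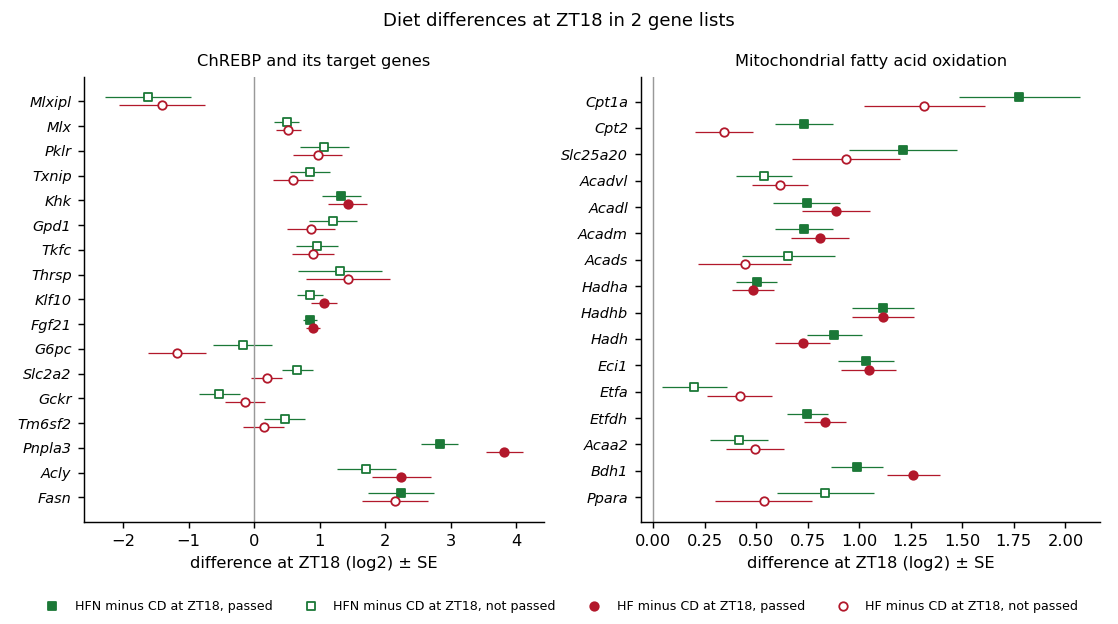
Difference from CD livers at ZT18 (log2, with SE) for each measured gene of 2 lists, in HFN livers (squares) and HF livers (circles), filled where the test was passed. In the list of ChREBP targets 4 genes passed in HFN and 5 in HF livers, and in the list of mitochondrial fatty acid oxidation 11 and 8, all of them to the right of 0.

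Genes of fasting and gluconeogenesis showed no such shift. Of 12 measured genes, 1 passed in HFN livers at ZT18 (Cpt1a, also in the list above) and 0 in HF livers, where 1.06% and 0.606% of all transcript clusters passed. The median differences from CD livers were 0.14 in HFN and -0.20 in HF livers. G6pc, the glucose-6-phosphatase, was lower in HF than in CD livers at ZT18 by 1.18 without passing (limma adjusted p = 0.272). Pdk4, which blocks pyruvate oxidation in fasting, was higher at ZT18 than at ZT6 by 3.25 in HFN, 3.36 in HF and 2.74 in CD livers (adjusted p = 0.0140, 0.00684 and 0.0338), the opposite direction to Rgs16. In HF and CD livers no day array was above background for it, and by the bound the night level was at least 4.52-fold higher in HF and 2.64-fold higher in CD livers. Of all transcript clusters, 0.246% passed between night and day in HFN, 0.866% in HF and 0.376% in CD livers.

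Clock genes were read in the same way. Of 20 measured genes, 4 were higher and 7 lower at ZT18 in HFN livers, 5 and 9 in HF livers and 3 and 6 in CD livers, where 0.246%, 0.866% and 0.376% of all transcript clusters passed. Neither night nor day livers were above background for Npas2, Per3, Tef, Ciart and Usp2 among those passing in HFN livers. The same held in HF livers for these and for Per1, Nfil3 and Bhlhe41, and in CD livers for Tef, Nfil3, Ciart and Bhlhe41. Nr1d1, the repressor REV-ERB alpha, was lower at ZT18 by 4.70 in HFN, 5.48 in HF and 5.58 in CD livers (limma adjusted p = 0.00235, 0.000437 and 0.000612). Dbp, the D-box activator, was lower by 4.41 in HFN, 5.26 in HF and 3.99 in CD livers (adjusted p = 1.11e-06, 1.54e-07 and 3.57e-06), and Arntl, which encodes BMAL1, was higher by 3.08 in HFN, 3.56 in HF and 2.94 in CD livers (adjusted p = 1.11e-06, 1.54e-07 and 1.71e-06). At ZT18 neither Nr1d1 nor Dbp was above the background percentile on any array. By the bound Nr1d1 was at least 4.77-fold lower in HFN, 7.93-fold lower in HF and 5.14-fold lower in CD livers at night, and Dbp at least 6.95-, 9.90- and 3.70-fold lower. Arntl was not above background at ZT6, and was at least 2.01-, 1.81- and 1.73-fold higher at night.

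Between HF and CD livers 0 of the 20 clock genes passed at ZT6 and 1 at ZT18, where 0.0440% and 0.606% of all transcript clusters passed. The 1 gene was Npas2, a partner of BMAL1, which was higher by 1.26 (limma adjusted p = 0.0260) at signals below background. Between HFN and CD livers 0 passed at either time, where 0.0318% of all transcript clusters passed at ZT6 and 1.06% at ZT18. None of the 20 passed as different in its night-minus-day change, with list medians of -0.25 for HFN minus CD, 0.26 for HFN minus HF and -0.39 for HF minus CD. Nr1d1 averaged 10.02 ± 1.246 in HFN, 10.84 ± 0.66 in HF and 10.78 ± 1.23 in CD livers at ZT6 (SD, n = 3 each), where the means of Rgs16 were 14.61, 15.07 and 11.12.

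The genes most like Rgs16 were ranked by Pearson's r over the 18 arrays, among 6156 genes with a mean above 4.35 and an SD of at least 0.25. The arrays share their diet and time, so that r mostly follows the 6 group means, and no p is given. Abcg5 (r = 0.94) and Abcg8 (r = 0.92), the paired subunits of the transporter that exports cholesterol into bile, came first. Abcg5 averaged 10.81 ± 0.38 in HFN, 10.41 ± 0.19 in HF and 9.78 ± 0.05 in CD livers at ZT18, and 12.04 ± 0.43 in HFN, 12.43 ± 0.18 in HF and 11.55 ± 0.39 in CD livers at ZT6 (SD, n = 3 each). Its means were lower at night in every group and lower in CD than in both high-fat groups at each time, over a smaller range than those of Rgs16.

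The next were Gm15408 and Eepd1 (r = 0.90 each), Slc5a6, a vitamin transporter, and the kinase gene Sgk2 (0.89 each), the clock repressor gene Ciart and Gabbr2, a subunit of the Gi-coupled GABA receptor (0.88 each), and Sel1l3 and Palmd (0.87 each). Gabbr2 averaged 9.46 in HFN, 9.60 in HF and 8.42 in CD livers at ZT18, and 9.91, 10.15 and 9.56 at ZT6. Without the 2 arrays farthest from the median of Rgs16, the r of these 10 genes ran from 0.83 to 0.92. By Spearman's rank correlation 6 of the 10 stayed among the first 10. The group means of Ciart (4.50 to 6.46) and Slc5a6 (5.56 to 6.43) all lay below the background percentile. Those of Gm15408, Eepd1 and Sel1l3 lay within or below its range of 7.66 to 8.70. In CD livers at ZT18 the means of Gabbr2 (8.42), Palmd (8.30) and Sgk2 (8.17) lay within that range too, as did that of Sgk2 in HFN livers at ZT18 (8.54).

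The most opposite genes were Ddc (r = -0.94), which encodes the decarboxylase of aromatic amino acids, Nop16 (-0.93), Mreg (-0.90), Pnrc1 (-0.89) and Slc17a3 (-0.88). Ddc averaged 9.71 in HFN, 10.16 in HF and 11.01 in CD livers at ZT18, and 8.55, 8.07 and 9.58 at ZT6. The group means of Nop16 (6.70 to 7.46) lay below the background percentile, and those of Mreg and Pnrc1 lay within or below its range. The ZT6 means of Ddc in HFN and HF livers also lay within that range.

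**Figure D5:**
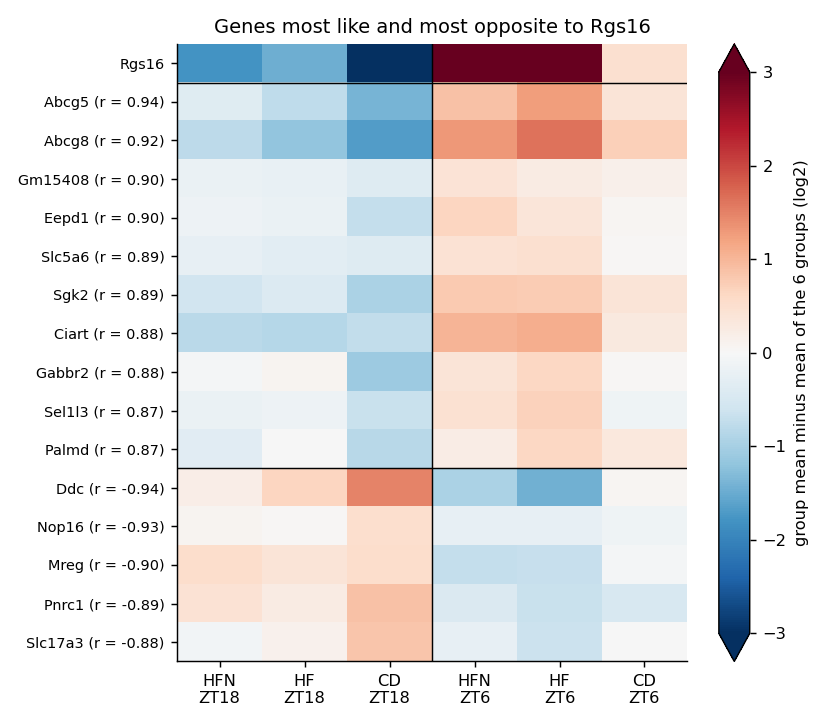
Mean of each group minus the mean of the 6 groups (log2, colour scale cut at -3 and 3) for Rgs16, the 10 genes with the highest and the 5 with the lowest Pearson r over the 18 arrays. Rgs16 goes past the scale in CD ZT18, HFN ZT6 and HF ZT6. In each diet group the 10 like genes have a lower mean at ZT18 than at ZT6, and the 5 opposite genes a higher one. The genes were chosen by r over these same arrays, and that choice favours these directions.

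With the group means removed, the likeness is that of single mice within their group, among 3103 genes whose deviations have an SD of at least 0.25. The genes named are the highest of these by r over the 18 arrays, a choice that by itself favours a high r. Whether their r exceeds what such a choice gives was not tested, and no p is given. Prox1, a transcription factor of hepatocytes and lymphatic endothelium, and Gm22043 came first (r = 0.80 each), then Zfp750 (0.75), Nr0b2, the repressor SHP of bile acid synthesis, and Mir466f-3 (0.74 each), Lipg, endothelial lipase, and Aldh1b1 (0.70 each), Mir6932 (0.69), Cyp3a25 (0.68) and Tbx3 (0.67). HFN ZT6 replicate 2, the array with the lowest Rgs16 of its group, is 1 of the 18 points, and without it these r ran from 0.52 to 0.81. Group means of Mir6932 (5.41 to 5.73), Aldh1b1 (5.40 to 5.90) and Tbx3 (6.77 to 7.28) lay below the background percentile. Those of Gm22043, Zfp750 and Lipg lay within or below its range.

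Markers of liver zones and cells were checked, since Rgs16 was measured in whole liver, where fewer cells that express a gene and less RNA per cell cannot be told apart. None of 11 periportal markers passed in a comparison with CD, and the differences of lowest p between HF and CD livers at ZT18 were -1.95 for Etnppl, a phospholyase, and 0.87 for Hsd17b13, a lipid droplet protein (limma adjusted p = 0.0510 and 0.0774). The summed periportal signal at ZT18 ranged from 20.34 to 20.65 in HFN, 20.41 to 20.57 in HF and 20.59 to 20.77 in CD livers. Of 12 pericentral markers, 3 passed as lower in HFN than in CD livers at ZT18 and 2 in HF than in CD livers, where 1.06% and 0.606% of all transcript clusters passed. Cyp7a1, the rate-limiting enzyme of bile acid synthesis, was lower by 2.87 in HFN and 3.24 in HF livers (adjusted p = 0.0202 and 0.0132), and Cyp1a2, a drug-metabolizing cytochrome, by 2.40 in HFN and 2.08 in HF livers (adjusted p = 0.00216 and 0.00636). Slc1a2, a glutamate transporter, was lower by 0.95 in HFN livers (adjusted p = 0.0263). The summed pericentral signal at ZT18 ranged from 20.37 to 20.47 in HFN, 20.46 to 20.58 in HF and 20.83 to 20.93 in CD livers. Each summed signal adds values on the linear scale, so that the brightest markers weigh most. Cyp1a2 is a bright marker, at 16.78 in HFN, 17.10 in HF and 19.17 in CD livers. The median differences of the 12 pericentral markers from CD livers were only -0.085 in HFN and -0.043 in HF livers.

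Kupffer cell markers had a summed signal of 12.19 to 12.75 in HFN, 12.15 to 12.23 in HF and 11.40 to 12.35 in CD livers at ZT18, and of 12.16 to 12.72 in HFN, 12.84 to 13.60 in HF and 11.94 to 12.56 in CD livers at ZT6, and none of the 14 passed in a comparison with CD. Of 10 endothelial markers, only Lyve1 passed as higher in HFN than in CD livers at ZT18, by 2.25 (limma adjusted p = 0.0252), or at least 1.81-fold by the bound. The median difference of the 10 was 0.15, and 1.06% of all transcript clusters passed in this comparison. Of 9 stellate, 6 cholangiocyte and 7 neutrophil markers none passed in any comparison, and of the 14 Kupffer markers only Mertk did, by -0.95 for night minus day in HF livers (adjusted p = 0.0170), where 0.866% of all transcript clusters passed. The summed stellate signal at ZT18 was 12.46 to 13.21 in HFN, 12.48 to 12.60 in HF and 11.81 to 12.40 in CD livers, and the cholangiocyte signal 11.10 to 11.41, 10.99 to 11.34 and 10.33 to 10.76. The median differences from CD livers at ZT18 were 0.35 in HFN and -0.010 in HF livers for stellate markers. For cholangiocyte markers they were 0.087 and 0.059. CD ZT18 replicates 2 and 3 are among the arrays of raised negative-control signal. At ZT6 the stellate signal was 12.33 to 12.58 in HFN, 12.20 to 12.95 in HF and 12.16 to 12.79 in CD livers, and the cholangiocyte signal 10.91 to 11.20, 10.93 to 11.46 and 10.59 to 11.11, and all 3 groups overlapped. The neutrophil signal at ZT18 was 7.43 to 7.57 in HFN, 7.41 to 7.61 in HF and 7.21 to 7.41 in CD livers. The summed signal of T, B and NK cell markers was 7.26 to 9.74 in HFN livers at ZT18 and 7.22 to 7.37 in the other groups. The mean of those HFN livers was 8.11, so that a single liver made the high end of their range. Apart from that liver, the neutrophil sums and the T, B and NK cell sums all lay below 7.66. That is the lowest 95th percentile of the negative controls on any array, so these sums were not above background. The part of the zone and cell markers in the differences of Rgs16 was not tested.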

How the data were processed

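Liver RNA of 18 mice, in 6 groups of 3, was hybridized to mouse Clariom D arrays, 1 mouse each. The authors obtained the deposited log2 values with the Transcriptome Analysis Console under default parameters. The sources used here do not give the probe summarization or its genome build. The deposited table has 72688 entries, of which 6732 are controls and 65956 transcript clusters entered the tests. 1 current gene symbol was found for 31292 of them.

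Group means were estimated together with limma 3.58.1 in R 4.3.3 (12 residual degrees of freedom and 2.27 from the prior), with Benjamini-Hochberg adjustment over all transcript clusters. Exact permutation tests used SciPy in Python. The fit was tested on simulated data with known changes. Precision is limited by having 3 arrays in a group. Rgs16 and the 25 gene lists (282 of 318 entries matched) were chosen with earlier results of these data known. Named genes follow a rule. It takes every measured RGS gene, up to 4 members per list with the largest change among those that passed, or up to 2 with the lowest p, the most and least correlated genes, and the 3 nearest measured genes on each side. Gnaq, Gna11, Gnai3, Mlxipl, G6pc and cell markers named without a call were added after their values were seen.

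Promoter bases are those of RefSeq. The alternatives were an unadjusted p, other minimum folds, fits on the compared groups alone, a replicate block, the 32978 brightest transcript clusters, quantile normalization, a trend with a robust prior, the negative-control median as a covariate and leaving out each array. Centring each array on its median was also planned for the night-minus-day changes and the permutation tests. For the other comparisons and the list counts it was chosen after seeing the data, as were leaving out 5 arrays at once and leaving out arrays in the permutation test. A mean over several transcript clusters did not apply, since Rgs16 has 1.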

Additional observations from a re-analysis of the deposited data

How the results depend on the processing

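Under the alternatives tried, the comparisons of HFN and HF with CD kept their direction. HFN minus CD at ZT6 (3.49) and HF minus CD at ZT6 (3.95) passed by an unadjusted p, HFN minus CD at ZT18 (3.81) no longer passed in a fit of the compared groups, and without the 5 arrays of highest negative-control median the ZT18 differences were 3.71 for HFN and 4.03 for HF and neither passed (limma adjusted p = 0.236 and 0.327), with 1 CD liver left at ZT18 that is assumed to vary like the other groups. With the negative-control median as a covariate, the night-minus-day change in HF livers was -4.88, HFN minus HF at ZT6 turned to 0.51, and the change in HFN minus that in HF livers turned to -0.67. Without the 5 arrays these 2 were 0.42 and -0.74, with 1 HF liver left at ZT6. The change in HFN minus that in CD livers was then -0.16, with the lone CD liver at ZT18. In the same fit HF minus CD at ZT6 was 3.45, again with 1 HF liver, and HFN minus CD at ZT6 was 3.87.

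Leaving out each array in turn, the difference ranged from 3.93 to 4.38 for HF minus CD at ZT18, 3.51 to 4.39 at ZT6, 3.20 to 4.29 for HFN minus CD at ZT18 and 2.82 to 4.49 at ZT6. HFN minus HF ranged from -0.93 to 0.15 at ZT18, -1.13 to 0.55 at ZT6 and -0.72 to 0.11 over both times. The differences in the night-minus-day change ranged from -0.25 to 0.62 (HF minus CD), -0.87 to 0.81 (HFN minus HF) and -0.68 to 1.00 (HFN minus CD), and the change itself in HFN livers from -6.75 to -5.07.

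Of the ChREBP targets, 13 (HFN) and 13 (HF) passed at ZT18 by an unadjusted p, 1 and 1 in fits of the compared groups, 2 and 2 with the covariate, 1 and 1 without the 5 arrays, and 2 in HFN livers with quantile normalization or a robust trend. Of the fatty acid oxidation genes, 15 passed in HF livers by an unadjusted p. In HFN and in HF livers, 0 and 0 passed in fits of the compared groups, 6 and 5 with the covariate, 6 and 5 with a robust trend and 2 and 0 without the 5 arrays, and 7 in HFN livers with quantile normalization. Leaving out 1 array gave 2 to 5 (HFN) and 2 to 7 (HF) ChREBP targets and 5 to 13 (HFN) and 4 to 11 (HF) oxidation genes. Of all 65956 transcript clusters, 9562 (HFN minus CD) and 8170 (HF minus CD) had an unadjusted p under 0.05 at ZT18. The list counts under the other settings were not set against all transcript clusters.

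With the replicate number as a block, HF minus CD at ZT18 passed (adjusted p = 0.0316), as did HFN minus CD (0.0342), and no other call on Rgs16 changed. Most same-numbered mice did not deviate together (r above 0.1 in 8 of 27 pairs, range -0.376 to 0.645), so the numbers were not taken as pairs. Between CD livers at ZT18 and ZT6, r was 0.645 for replicate 1, -0.211 for replicate 2 and 0.586 for replicate 3. The cause of these changes was not tested. CD livers at ZT18 lie at background, which limits every comparison that uses them, and 3 mice per group limit the rest.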
